A study of Mus musculus with 43 samples.

Results

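The genes described here are 9 genes of the tight junction, measured in RNA of brain endothelial cells (EC): Cldn5, Cldn12, Ocln, Marveld2, Lsr, F11r, Jam2, Tjp1 and Cgn. Members were taken by name, as the rows of the count table whose gene symbol equals 1 of these names, so 9 of 54532 genes in the table. No measured value enters this rule, though the names were chosen with earlier results of these data known. All 9 had a row and all 9 passed the filter on low counts.

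Tight junctions seal the gap between neighbouring EC and make the paracellular path of the blood–brain barrier (BBB) tight. Their strands are built from claudins, with occludin and the junctional adhesion molecules beside them in the membrane. Where 3 cells meet, tricellulin and the angulins close the remaining channel. On the inner face a plaque of scaffold proteins ties the strands to actin.

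EC were sorted as CD45-, CD11b- and CD31+ cells from brains of mice aged 2 months, and each of 43 libraries was labelled by strain, sex and region. C57BL/6J, NOD/ShiLtJ, CAST/EiJ and WSB/EiJ each gave 6 libraries, of which 2 per strain were female. DBA/2J and A/J gave 5 libraries each, with 1 female library in either strain, and 129S1/SvImJ gave 9, with 6 female libraries. CAST/EiJ and WSB/EiJ are the wild-derived strains (12 libraries) and the other 5 are long-inbred (31 libraries). There were 16 female and 27 male libraries, 21 from cortex and 22 from hippocampus. Each sample title also carries the word high or low, which no source used here defines. Of the male libraries 14 are titled high and 13 low, whereas 15 of the 16 female libraries are titled high. The labels do not name the mouse, so cortex and hippocampus libraries may share animals, and p-values measure only the spread between these libraries.

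Library totals ran from 1626534 to 49372356 counts (median 5790701), and WSB/EiJ had the shallowest set, 1626534 to 5331064. Levels are given as CPM, counts per 1000000 after scaling of library sizes by the trimmed mean of M values (TMM). At the floor of 3 counts a gene is not told from 0 in a library. This floor covers counting error only. The sorted cells carried their label: Pecam1, which encodes CD31, had 857 ± 161 CPM (SD, n = 43) and Cdh5, the endothelial cadherin, 913 ± 218 CPM. The 10 microglial markers summed to between 0.555 and 152 CPM. The 10 astrocyte markers summed to between 1108 and 19790 CPM (median 3409), mostly from Slc1a2. The 10 pericyte markers summed to between 2160 and 9759 CPM (median 4494), mostly from Rgs5, so the sorted cells were not EC alone. Counts from 3 rRNA-like genes made up 1.59% to 12.1% of female and 13% to 29.3% of male libraries, so that sex and this share cannot be told apart. In bulk samples, fewer cells of a type and less RNA per cell cannot be told apart either.

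The sequence before the start site is shown for Cldn5, the 1 member that passed the test between libraries titled high and low, for F11r and Ocln, which passed it beside Cldn5 once strain and region were in the fit, and for Tjp1, the member with the smallest spread over libraries. RefSeq promoter entries (GRCm38.p6) were given for 8 of the 9 members, all but Jam2. Each sequence below is the 250 bases before the most upstream RefSeq start, 5′ to 3′ on the gene's strand, and capitals mark the motifs searched on both strands.
Cldn5, chr16:18776597-18776846, plus strand: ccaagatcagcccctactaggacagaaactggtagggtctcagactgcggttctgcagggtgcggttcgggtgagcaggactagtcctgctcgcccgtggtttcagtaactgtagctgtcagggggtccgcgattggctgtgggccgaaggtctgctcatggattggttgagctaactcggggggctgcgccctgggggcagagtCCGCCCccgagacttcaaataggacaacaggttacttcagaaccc
Ocln, chr13:100552719-100552968, minus strand: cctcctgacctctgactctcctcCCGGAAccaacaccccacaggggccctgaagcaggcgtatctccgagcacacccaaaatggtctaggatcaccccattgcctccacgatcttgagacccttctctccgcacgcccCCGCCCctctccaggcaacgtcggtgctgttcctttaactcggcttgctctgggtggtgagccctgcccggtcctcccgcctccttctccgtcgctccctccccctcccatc
F11r, chr1:171437311-171437560, plus strand: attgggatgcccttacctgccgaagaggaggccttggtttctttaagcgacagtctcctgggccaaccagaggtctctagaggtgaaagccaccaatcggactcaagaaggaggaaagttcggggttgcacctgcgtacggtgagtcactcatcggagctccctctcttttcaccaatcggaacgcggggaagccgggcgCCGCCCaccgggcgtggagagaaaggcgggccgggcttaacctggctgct
Tjp1, chr7:65371245-65371494, minus strand: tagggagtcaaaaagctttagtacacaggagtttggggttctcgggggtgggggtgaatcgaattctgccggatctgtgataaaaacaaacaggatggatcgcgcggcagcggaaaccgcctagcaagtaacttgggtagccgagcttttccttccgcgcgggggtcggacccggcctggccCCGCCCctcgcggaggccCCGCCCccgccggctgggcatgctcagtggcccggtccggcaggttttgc
The search covered the GC box (GGGCGG), an ETS core (CCGGAA), a SOX core (ACAATG), a TCF/LEF core (CTTTGA), the TATA box (TATAAA) and the E-box CACGTG, none of which overlapped another. The GC box stood in 7 of the 8 members' windows and in 32.7% of all 32851 RefSeq windows of this length. It began 45 bases before the start of Cldn5, 112 before that of Ocln, 50 before that of F11r, and 68 and 50 before that of Tjp1. The ETS core was present in Ocln, Lsr and Cldn12, against 12% of all windows, and was at 227 bases before the Ocln start. Neither the SOX core (10.7% of all windows) nor a TATA box (12.4%) was found in the windows of Cldn5, Ocln, F11r or Tjp1. The TCF/LEF core, in 13.8% of all windows, was found in Lsr alone, and CACGTG, in 6.02%, in Cgn alone. GC content was between 59.6% (Cldn5) and 64.0% (Ocln) in these 4 windows, against a median of 52.4% over all windows. These are letter matches and not measured binding sites. The Tjp1 window lies inside the span that GENCODE release M21 gives the gene, in none of its exons. In the F11r window the last bases belong to an F11r exon of GENCODE, and the first bases to an exon of the antisense gene Gm26641.

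The members spanned a wide range of levels (plot of levels per kb). Per kilobase of exon, Cldn5 was the highest by far, at 848 ± 432 CPM per kb (SD, n = 43), followed by Tjp1 at 163 ± 24.98, Lsr at 157 ± 51.3 and Ocln at 91.9 ± 26.0 CPM per kb. Jam2 had 37.6 ± 11.8, F11r 27.5 ± 11.4 and Marveld2 8.52 ± 4.85 CPM per kb. Cldn12 and Cgn closed the order at 2.30 ± 1.98 and 0.155 CPM per kb. Without division by length, Tjp1 and Cldn5 ranked at places 46 and 55 of 29120 genes by mean CPM.

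**Figure D1:**
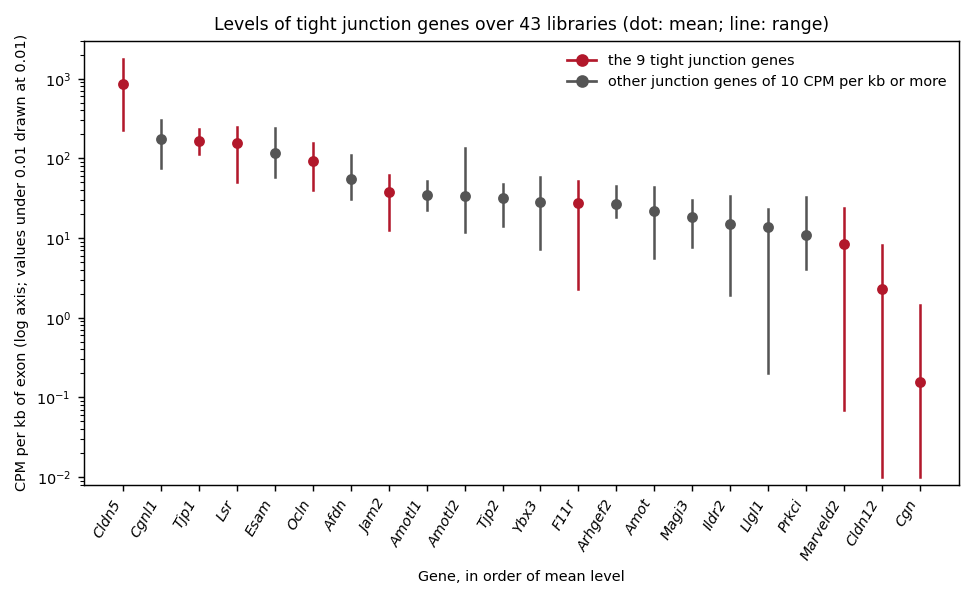
Level of each tight junction gene in CPM per kb of exon (log axis), with the mean over 43 libraries as a dot and the range as a line; the 9 members are red and other junction genes with a mean of at least 10 CPM per kb are grey. Cldn5 (mean 848) stands above all others, Tjp1, Lsr and Ocln lie near Cgnl1 and Esam, and Cldn12 and Cgn reach 0 in some libraries.

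Claudins form the sealing strands, and Cldn5 is the claudin for which brain EC are best known. Cldn5 (ENSMUSG00000041378, chr16:18776847-18778262, plus strand) ran from 322 to 2503 CPM over the 43 libraries, with a median of 1028 CPM. Cldn12 (ENSMUSG00000046798, chr5:5489537-5514958, minus strand), a broadly expressed claudin, ran from 0 to 34.6 CPM with a median of 7.90 CPM. It was at or below 3 counts in 5 libraries. No other claudin came near Cldn5: of 25 further claudin genes with a row, 22 had a mean under 1 CPM. The highest 3 per kilobase were Cldn10 at 2.23, Cldn11, the myelin claudin, at 0.678 and Cldn9 at 0.436 CPM per kb.

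Occludin and tricellulin share the MARVEL membrane domain, and Lsr, also called angulin-1, recruits tricellulin to tricellular contacts. Ocln (ENSMUSG00000021638, chr13:100496507-100552718, minus strand) ran from 168 to 652 CPM with a median of 387 CPM. Marveld2, the tricellulin gene (ENSMUSG00000021636, chr13:100595957-100616971, minus strand), lies near Ocln on the same strand. It ran from 0.236 to 81.3 CPM with a median of 29.0 CPM. Lsr (ENSMUSG00000001247, chr7:30957770-30973464, minus strand) ran from 109 to 544 CPM with a median of 348 CPM. Lsr shares 946 bp of exon with the antisense gene Gm4673, which drew 10416 counts in all against 203862 for Lsr, and whether counting used strand is not given in the sources used here.

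The junctional adhesion molecules are immunoglobulin-like proteins of the cell contact. F11r, which encodes JAM-A (ENSMUSG00000038235, chr1:171437535-171464603, plus strand), ran from 6.05 to 137 CPM with a median of 74.0 CPM. Jam2, which encodes JAM-B (ENSMUSG00000053062, chr16:84774123-84825928, plus strand), ran from 75.9 to 376 CPM with a median of 223 CPM.

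In the plaque, ZO-1 binds claudins, occludin and actin, and cingulin links ZO-1 to the cytoskeleton. Tjp1, the ZO-1 gene (ENSMUSG00000030516, chr7:65296165-65527781, minus strand), was the steadiest member, between 887 and 1827 CPM with a coefficient of variation of 15.3%. On the log2 scale its SD of 0.219 was larger than that of only 0.0115% of the 8679 genes with a mean of at least 10 CPM. Cgn, the cingulin gene (ENSMUSG00000068876, chr3:94760069-94786492, minus strand), had no count in 26 of 43 libraries and more than 3 counts in 10, with a highest value of 8.63 CPM. Its paralogue Cgnl1, paracingulin, stood at 177 ± 62.1 CPM per kb, above Tjp1. Cgn and Cldn12 are therefore given below as values with little precision.

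The first comparison asked whether a gene varied among the 7 strains. Of the 9 members 1 passed the test, Cldn5 (edgeR quasi-likelihood test, adjusted p = 0.00167), and over all 29120 genes tested 2.68% passed. The mean of Cldn5 was 1643 ± 695 CPM in CAST/EiJ (SD, n = 6), 1608 ± 397 in NOD/ShiLtJ (n = 6), 1454 ± 672 in C57BL/6J (n = 6), 1403 ± 750 in A/J (n = 5), 888 ± 496 in 129S1/SvImJ (n = 9), 871 ± 169 in DBA/2J (n = 5) and 676 ± 141 in WSB/EiJ (n = 6). The fitted difference between the strains at the ends, CAST/EiJ over WSB/EiJ, was 1.28 ± 0.29 on the log2 scale (SE). These ends were picked from the same data, and the difference between them has no test of its own. Each adjusted p of this comparison, here and below, is that of the test over all 7 strains. Both end strains are wild-derived.

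The 6 WSB/EiJ libraries lay between 543 and 943 CPM of Cldn5 with a median of 650 CPM, and the 6 CAST/EiJ libraries between 719 and 2366 CPM with a median of 1952 CPM. The ranges overlap through the 2 CAST/EiJ libraries titled low, at 818 and 719 CPM. The 5 DBA/2J libraries were at 782, 1065, 796, 1034 and 680 CPM and the 5 A/J libraries at 2251, 1972, 752, 1515 and 525.6 CPM. In A/J, too, the lower 2 were the male libraries titled low. Cldn5 kept its call with sex, region and title tag as covariates (1.18 ± 0.22 between the end strains, adjusted p = 1.61e-05). It also kept the call among libraries titled high alone, a fit added once the data had been seen (1.61 ± 0.29, adjusted p = 2.25e-04). It lost the call in male libraries alone (0.90 ± 0.28, adjusted p = 0.0704). With region and title tag as covariates in male libraries, a fit added once the data had been seen, it was called. With the mean of 20 endothelial markers as a covariate it also lost the call (0.67 ± 0.20, adjusted p = 0.163). That marker mean was 9.69 ± 0.26 on the log2(CPM + 1) scale in CAST/EiJ and 9.46 ± 0.13 in WSB/EiJ. Other cell type markers differed more between these strains. The 10 pericyte markers summed to a median of 2504 CPM (2160 to 3108) in CAST/EiJ and 9037 CPM (5242 to 9759) in WSB/EiJ. What part cell composition had in the strain difference was not tested.

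Marveld2 was lowest in C57BL/6J, at 6.53 ± 8.0 CPM (SD, n = 6), whereas the other 6 strains had means from 26.6 to 35.3 CPM. The 6 C57BL/6J libraries ranged from 0.236 to 20.1 CPM with a median of 2.87 CPM. Both female ones, titled high, were at 0.236 CPM, a single count, and 0.684 CPM, whereas the male ones titled high were at 20.1 and 12.4 CPM. No library of the other strains was below 11.3 CPM, which lies under the highest C57BL/6J value. The difference from CAST/EiJ, the highest strain in the fit, was 2.42 ± 0.58 on the log2 scale. In edgeR's quasi-likelihood test over all 7 strains Marveld2 had an adjusted p of 0.105. It passed with sex, region and title tag as covariates (2.59 ± 0.57, adjusted p = 0.0437) and in DESeq2 (adjusted p = 0.0231). It also passed with the endothelial marker mean as a covariate (2.47 ± 0.56, adjusted p = 0.0407) and with the default dispersion of edgeR (adjusted p = 0.0108), 4 of 21 alternatives in all, and was at an adjusted p of 0.908 in male libraries alone. The mm10 genome that the reads were aligned to is that of C57BL/6J.

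The other 7 members did not pass the test among strains in edgeR without covariates. Ocln had its highest mean in CAST/EiJ (516 ± 107 CPM, SD, n = 6) and its lowest in DBA/2J (288 ± 58.8 CPM, n = 5), with an adjusted p of 0.153. Ocln passed in 2 of 21 alternatives, DESeq2 and the fit with sex, region and title tag as covariates. Tjp1 ran from 1028 ± 88.2 CPM in DBA/2J to 1438 ± 237 CPM in WSB/EiJ and 1437 ± 141 CPM in C57BL/6J (adjusted p = 0.245). It passed in 1 of 21 alternatives, DESeq2 (adjusted p = 1.91e-05). DBA/2J was the lowest of the 7 strains for Cldn12, Lsr, Ocln and Tjp1 alike. Low values in DBA/2J were not limited to junction genes. The mean of the 20 endothelial markers was 9.44 ± 0.07 on the log2(CPM + 1) scale in DBA/2J. It was 9.38 ± 0.40 in 129S1/SvImJ, the lowest strain, and 9.69 ± 0.26 in CAST/EiJ, the highest. Jam2 ran from 175 ± 60.5 CPM in 129S1/SvImJ to 282 ± 63.8 CPM in C57BL/6J (adjusted p = 0.465). Lsr ran from 243 ± 46.4 CPM in DBA/2J to 407 ± 82.3 CPM in NOD/ShiLtJ (adjusted p = 0.703). F11r was lowest in WSB/EiJ at 49.8 ± 34.8 CPM, where the female cortex library held 6.05 CPM, 14 counts, against 106 CPM in the female hippocampus library (adjusted p = 0.815). For Cldn12 and Cgn the adjusted p was 0.920 and 0.967.

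**Figure D2:**
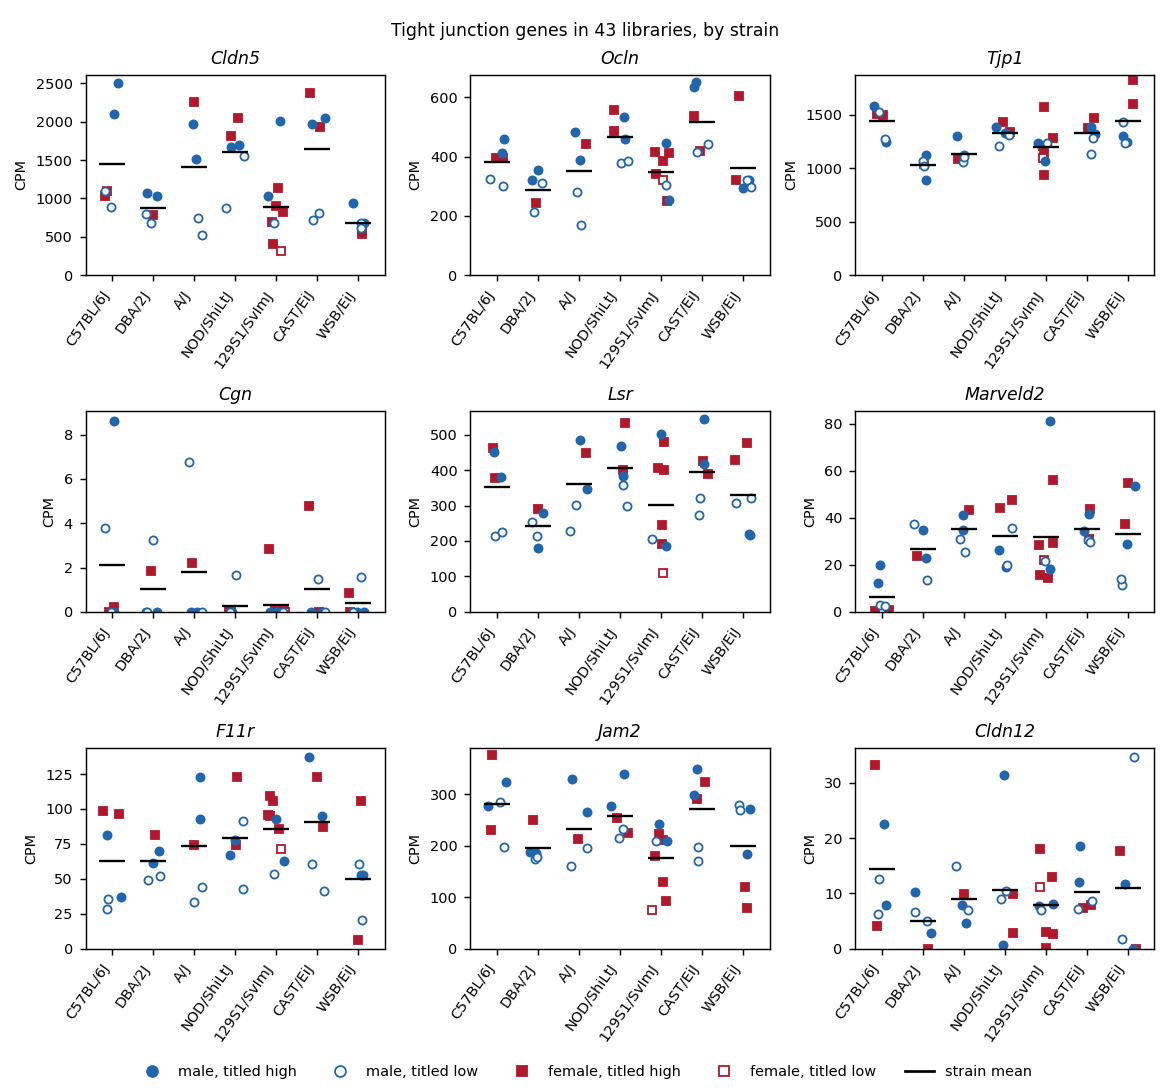
CPM of each of the 9 genes in every library (linear axes from 0), by strain; circles are male and squares female libraries, filled where titled high and open where titled low, and the bar is the strain mean. In Cldn5 the open circles lie below the filled ones in every strain but WSB/EiJ, where they meet at 680 and 678, WSB/EiJ is the lowest strain at a mean of 676, and Marveld2 is lowest in C57BL/6J at 6.53.

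When strains were put in order of their mean log2(CPM + 1), none of the 54 neighbouring pairs passed (two-sided exact permutation test, Benjamini-Hochberg adjustment over 54). In 43 of the 54 pairs the groups were too small for a single fully separated pair to pass, since the smallest p of 6 libraries against 6 is 0.00216 by an exact permutation test, 0.117 after adjustment, so these tests do not show that neighbours were alike. The smallest p was 0.00866, for DBA/2J over C57BL/6J in Marveld2, adjusted to 0.468, and all other adjusted values were 0.993 or above. None of the pairs was free of overlap. For Cldn5 this order was NOD/ShiLtJ, CAST/EiJ, C57BL/6J, A/J, DBA/2J, 129S1/SvImJ and WSB/EiJ, and the step between A/J and DBA/2J, at 0.502, was the widest.

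Among further genes of the junction, 2 of 53 tested varied among strains. Ildr2, a relative of Lsr in the angulin family, had an adjusted p of 9.82e-11. Its mean was 21.1 ± 4.56 CPM in DBA/2J (n = 5), 70.0 ± 27.1 in A/J, 85.1 ± 36.3 in C57BL/6J, 115 ± 19.4 in NOD/ShiLtJ, 150 ± 52.6 in 129S1/SvImJ, 173 ± 46.4 in CAST/EiJ and 217 ± 45.8 CPM in WSB/EiJ. The 5 DBA/2J libraries, at most 26.9 CPM, lay below every library of the other strains, whose lowest was 27.3 CPM in C57BL/6J. Magi1, a scaffold protein with PDZ domains, ran from 23.9 ± 9.88 CPM in NOD/ShiLtJ to 94.5 ± 64.4 CPM in WSB/EiJ (adjusted p = 0.00379). None of 17 claudins and 13 polarity genes passed.

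The second comparison set the 12 wild-derived against the 31 long-inbred libraries. None of the 9 members differed (edgeR, none at an unadjusted p under 0.05 and none in DESeq2), and 0.749% of all genes tested passed. Cldn5 was at 1159 ± 696 CPM in wild-derived and 1217 ± 588 CPM in long-inbred libraries, a log2 difference of -0.07 ± 0.21 (SE), with CAST/EiJ and WSB/EiJ at the 2 ends of the fitted strain order. Ocln was at 438 ± 136 against 369 ± 93.2 CPM (0.25 ± 0.14, adjusted p = 0.754) and Tjp1 at 1382 ± 186 against 1232 ± 185 CPM (0.17 ± 0.09, adjusted p = 0.754). Differences of the other 6 members lay between -0.46 for Cgn, with an SE of 1.84, and 0.36 for Marveld2, with an SE of 0.35. Of the further genes, Ildr2 was higher in wild-derived libraries, 195 ± 49.7 against 96.9 ± 55.9 CPM (1.01 ± 0.24, adjusted p = 0.0150). By strain, long-inbred 129S1/SvImJ lay just under CAST/EiJ for Ildr2, and DBA/2J was far below the rest. Origin is a trait of the strain, so libraries of the same strain do not replicate it. With counts summed per strain 7 genes were called in this comparison, against 218 with libraries as replicates.

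The third comparison set 16 female against 27 male libraries. Female libraries were deeper, with a median of 21242058 counts (2731954 to 49372356) against 5257353 (1626534 to 10567966) in male ones. None of the 9 members passed in edgeR or in DESeq2, although 2.85% of all genes did. With counts drawn down to the smallest total no member passed either, and 2.68% of all genes did. F11r was the only member with an unadjusted p under 0.05. It had 89.5 ± 27.3 CPM in female and 63.6 ± 28.2 CPM in male libraries, a difference of 0.49 ± 0.20 (unadjusted p = 0.0173, adjusted p = 0.235, edgeR). The ranges, 6.05 to 123 and 20.5 to 137 CPM, overlapped almost wholly. Cldn5 was at 1171 ± 683 CPM in female and 1219 ± 579 CPM in male libraries (-0.06 ± 0.19). Among libraries titled high it was at 1227 ± 667 CPM in 15 female and 1588 ± 550 CPM in 14 male libraries (-0.39 ± 0.20, adjusted p = 0.392), and with strain and region in that fit the difference was -0.45 ± 0.14 (adjusted p = 0.0875). In libraries of both titles, without 129S1/SvImJ and without covariates, the Cldn5 difference was 0.25 ± 0.20 (adjusted p = 0.643). Jam2 was at 205 ± 87.5 against 241 ± 57.2 CPM (-0.24 ± 0.15, adjusted p = 0.490), and Lsr at 379 ± 114 against 318 ± 106 CPM (0.25 ± 0.15, adjusted p = 0.456). With the rRNA-like share added to the fit, which does not overlap between the sexes, the estimates moved to 1.10 ± 0.31 for Cldn5 (adjusted p = 0.103), 0.92 ± 0.24 for Ocln (adjusted p = 0.0661) and 0.28 ± 0.28 for Jam2, so that the direction turned for Cldn5 and Jam2.

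3 further genes were higher in female libraries. Esam, an adhesion molecule of EC contacts, was at 425 ± 139 against 279 ± 88.3 CPM (0.61 ± 0.14, adjusted p = 0.00390). Magi1 was at 78.5 ± 48.5 against 41.5 ± 19.5 CPM (0.92 ± 0.23, adjusted p = 0.00960). Afdn, the afadin scaffold, differed by 0.37 ± 0.10 (adjusted p = 0.0220). Among libraries titled high Esam (adjusted p = 0.334), Magi1 (adjusted p = 0.181) and Afdn (adjusted p = 0.0744) did not pass. With the rRNA-like share added to the fit none passed, and Magi1 turned to -0.28 (adjusted p = 0.924).

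The fourth comparison set 21 cortex against 22 hippocampus libraries. None of the 9 members differed (edgeR, none at an unadjusted p under 0.05, none in DESeq2), against 0.0755% of all genes. Cldn5 was at 1158 ± 639 CPM in cortex and 1242 ± 597 CPM in hippocampus (-0.10 ± 0.19), Ocln at 386 ± 107 and 390 ± 114 CPM (-0.01 ± 0.13) and Tjp1 at 1243 ± 166 and 1303 ± 219 CPM (-0.07 ± 0.09). The widest difference was that of Marveld2, 24.9 ± 13.1 against 32.5 ± 18.5 CPM (-0.39 ± 0.32, adjusted p = 0.672). Within the 18 cells of strain, sex and tag that held both regions, Cldn5 was higher in cortex in 13, with a mean difference of 0.01 ± 0.43 (SD). No member had an effect of origin or of sex that differed between the regions (interaction terms in edgeR and in DESeq2, none with an unadjusted edgeR p under 0.05), where 0.0% and 0.00343% of all genes passed. For origin and region, 675 genes had an unadjusted p under 0.05 and DESeq2 called 24. The interaction of sex and region was -0.49 ± 0.37 for Cldn5 and that of origin and region 0.42 ± 0.41.

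**Figure D3:**
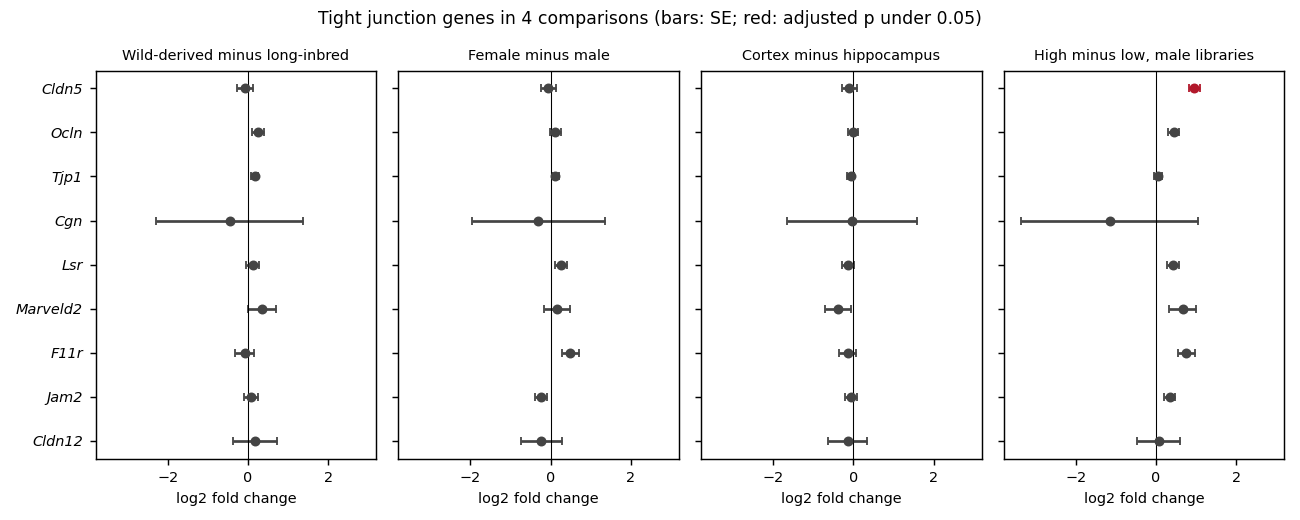
Fitted log2 fold change of the 9 genes in 4 comparisons, with SE bars; red marks an adjusted p under 0.05 over all genes tested. The bars of Cgn are the widest, and the high against low difference of Cldn5 at 0.96 is the only red point.

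The fifth comparison set the 14 male libraries titled high against the 13 titled low. Cldn5 was higher in those titled high, and was 1 of the 9 members that passed (0.96 ± 0.15, adjusted p = 7.81e-05, edgeR), where 1.06% of 27529 genes passed. Its level was 1588 ± 550 CPM in libraries titled high (678 to 2503, median 1682) and 822 ± 262 CPM in those titled low (525.6 to 1550, median 752). The groups overlapped. The highest library titled low, NOD/ShiLtJ hippocampus at 1550 CPM, stood above the WSB/EiJ and DBA/2J libraries titled high, the 129S1/SvImJ cortex one at 1034 CPM and the A/J hippocampus one at 1515 CPM.

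In 13 combinations of strain and region the male set held 1 library of either title, which allows the titles to be set side by side (plot of joined libraries). Cldn5 was higher under the title high in 13 of 13, with a median ratio of 2.28 and a mean log2 difference of 0.95 ± 0.54 (SD). The cortex pairs, high then low, were at 2503 and 1099 CPM in C57BL/6J, 1972 and 752 in A/J, 2051 and 818 in CAST/EiJ, 1690 and 874 in NOD/ShiLtJ, 1065 and 796 in DBA/2J and 943 and 680 in WSB/EiJ. The hippocampus pairs were at 2006 and 677 CPM in 129S1/SvImJ, 1515 and 525.6 in A/J, 2096 and 895 in C57BL/6J, 1969 and 719 in CAST/EiJ, 1034 and 680 in DBA/2J, 1674 and 1550 in NOD/ShiLtJ and 678 and 623 in WSB/EiJ. The log2 difference thus ran from 0.11 in NOD/ShiLtJ hippocampus to 1.57 in 129S1/SvImJ hippocampus.

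F11r came next, at 78.9 ± 27.7 CPM in libraries titled high and 47.2 ± 18.0 CPM in those titled low (0.75 ± 0.21, adjusted p = 0.0718), and was higher under the title high in 11 of 13 combinations. Ocln was at 430 ± 120 against 319 ± 75.6 CPM (0.44 ± 0.14, adjusted p = 0.151), also in 11 of 13, and the 2 exceptions were WSB/EiJ cortex (295 and 299 CPM) and hippocampus (321 and 323 CPM). With strain and region as covariates F11r (0.75 ± 0.20, adjusted p = 0.0254) and Ocln (0.44 ± 0.11, adjusted p = 0.0168) passed beside Cldn5 (0.92 ± 0.11, adjusted p = 8.92e-07).

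Lsr was at 361 ± 125.2 against 271 ± 50.7 CPM (0.42 ± 0.15, adjusted p = 0.259), Jam2 at 267 ± 57.9 against 213 ± 42.2 CPM (0.34 ± 0.14, adjusted p = 0.405) and Marveld2 at 33.6 ± 17.6 against 21.2 ± 11.6 CPM (0.67 ± 0.34, adjusted p = 0.624). Tjp1 was at 1250.0 ± 165 against 1221 ± 147 CPM, a difference of 0.04 ± 0.09 (adjusted p = 0.877). Cldn12 differed by 0.07 ± 0.54. Cgn was listed at 0 in 13 of the 14 libraries titled high and in 7 of the 13 titled low.

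**Figure D4:**
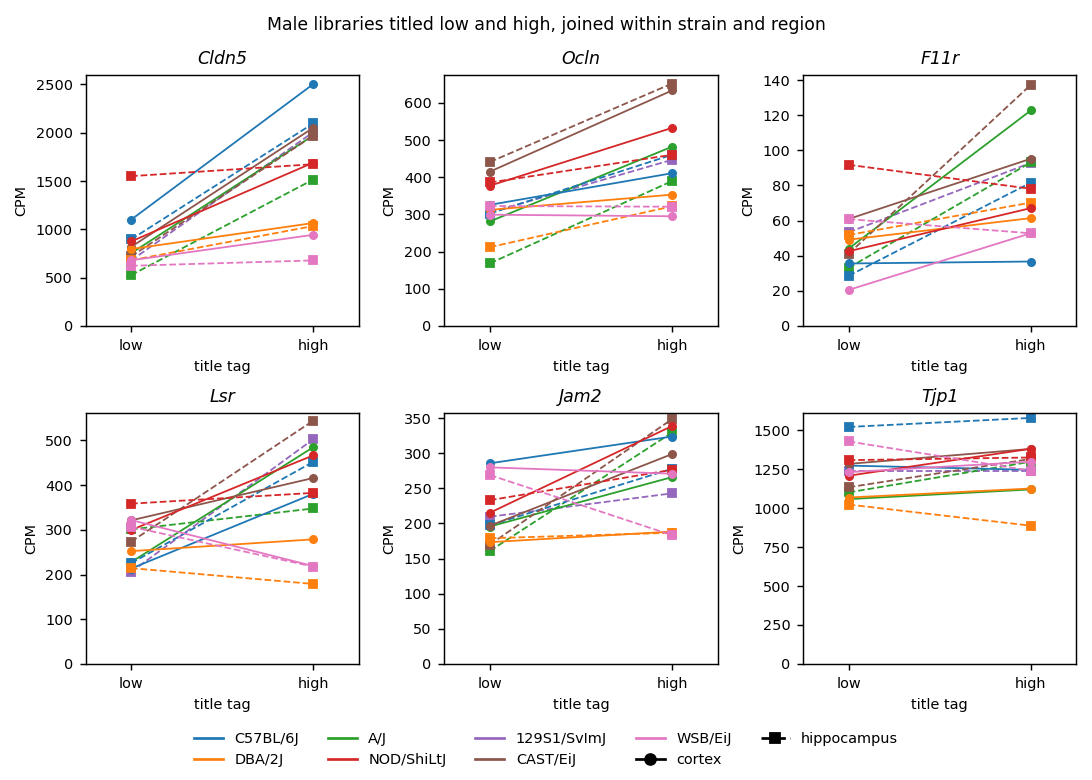
CPM of 6 tight junction genes in male libraries titled low and high (linear axes from 0), joined within strain (colour) and region (solid for cortex, dashed for hippocampus). All 13 lines rise for Cldn5 and 11 of 13 for Ocln, F11r and Jam2, whereas those of Tjp1 are nearly flat.

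Cell type markers moved with the same titles. The 20 endothelial markers summed to between 20350 and 30070 CPM (median 26580) in libraries titled high and to between 20100 and 24570 CPM (median 21920) in those titled low, with 4 markers called higher and 1 lower. The 10 astrocyte markers summed to a median of 3259 CPM (1469 to 7305) and 5274 CPM (3167 to 19790), with 4 called lower in high, and the 6 neuronal markers to 124.9 CPM (34.5 to 449) and 288 CPM (171 to 521), with 1 called lower. The 6 oligodendrocyte markers had medians of 35.9 CPM and 121 CPM (1 called lower), the 10 pericyte markers 3905 and 6863 CPM (1 called lower) and the 4 erythrocyte markers 310.2 and 89.9 CPM (1 called higher). The pericyte sum came mostly from Rgs5, at 2898 ± 1315 CPM in high and 5174 ± 1832 CPM in low. Of the 10 pericyte markers 8 had a positive difference and 2 a negative one. Their mean on the log2(CPM + 1) scale was 7.27 in high and 7.12 in low. No marker of smooth muscle, microglia, fibroblasts, choroid plexus and ependyma or platelets was called. With the endothelial marker mean as a covariate the Cldn5 difference was 0.26 ± 0.15 (adjusted p = 0.721), and with the mean of astrocyte and neuronal markers 0.57 ± 0.26 (adjusted p = 1.0). Under the first of these 1 of 21675 genes was called at all, and under the second none of 23189, whereas 1.06% of genes were called without them. The part of cell composition in the result was not tested.

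Not all junction genes followed Cldn5. Cgnl1 was lower in libraries titled high, 950 ± 149 CPM (602 to 1120) against 1591 ± 457 CPM (895 to 2414) in those titled low (-0.73 ± 0.12, adjusted p = 1.46e-04). Amotl1, a motin that binds the plaque, was lower too (-0.49 ± 0.12, adjusted p = 0.0232), whereas Esam was higher, 335 ± 79.7 against 219 ± 49.4 CPM (0.62 ± 0.14, adjusted p = 0.00842). Of the further genes tested, 1 of 8 membrane proteins was higher, 2 of 15 plaque and scaffold genes were lower, and no claudin of 14 or polarity gene of 12 passed. The highest polarity genes per kilobase, Llgl1, Prkci and Pard3, and the highest membrane protein beside Esam and Ildr2, Marveld1, passed in none of the 5 comparisons.

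The last question was which members rose and fell together over the libraries. Of 36 pairs, 10 had a Pearson r on log2(CPM + 1) with an adjusted p under 0.05 (permutation test, 100000 resamples, Benjamini-Hochberg adjustment over 36), all positive, and 12 a Spearman rho. The highest r was that of Cldn5 with Jam2 (r = 0.739, rho = 0.709, permutation p = 1e-05 for both, the smallest these resamples can give, adjusted p = 1.2e-04), and r was 0.652 without the 2 libraries farthest from the median of Cldn5. Ocln and Lsr had the highest rho, 0.765, with r = 0.679 (permutation p = 1e-05 for both, adjusted 1.2e-04), with r = 0.735 without the 2 farthest libraries. Cldn5 with Ocln had r = 0.650 and rho = 0.674 (permutation p = 2e-05 and 1e-05, adjusted p = 1.8e-04 and 1.2e-04), and r = 0.645 without the 2 farthest. Cldn5 with Lsr had r = 0.647 and rho = 0.569 (permutation p = 1e-05 and 7e-05, adjusted p = 1.2e-04 and 5.04e-04), and r = 0.545 without the 2 farthest.

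Tjp1 was correlated with Lsr (r = 0.546, rho = 0.539, permutation p = 9e-05 and 2e-04, adjusted p = 6.48e-04 and 0.00103, r = 0.501 without the 2 farthest libraries) but did not pass with Cldn5 (r = 0.232, rho = 0.288, permutation p = 0.133 and 0.0620, adjusted p = 0.368 and 0.149). Marveld2, Cldn12 and Cgn were in none of the 10 pairs. Within sexes, 2 pairs passed by Pearson r in the 16 female libraries, Cldn5 with Jam2 and with Lsr. By Spearman rho only Cldn5 with Jam2 passed there, and Cldn5 with Lsr had rho = 0.418. In the 27 male libraries 13 pairs passed by each coefficient. Within the 14 male libraries titled high 7 pairs passed by Pearson r but 1 by Spearman rho, and within the 13 titled low none passed by either. With each strain centred on its own mean 9 pairs passed. After subtraction of the endothelial marker mean 5 pairs passed, 2 of them positive, Cldn5 with Jam2 and Ocln with Lsr. Cldn5 with Tjp1 turned negative there (r = -0.646, rho = -0.622, permutation p = 2e-05 and 4e-05, adjusted p = 7.2e-04 and 0.00144, r = -0.650 without the 2 farthest libraries). Subtracting 1 shared value from both genes of a pair can itself move such an r. The marker mean had an SD of 0.264 over the 43 libraries, larger than the 0.219 of Tjp1. Permutation was done after the subtraction, so these p-values do not account for the shared value, and no inverse relation can be read from them.

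**Figure D5:**
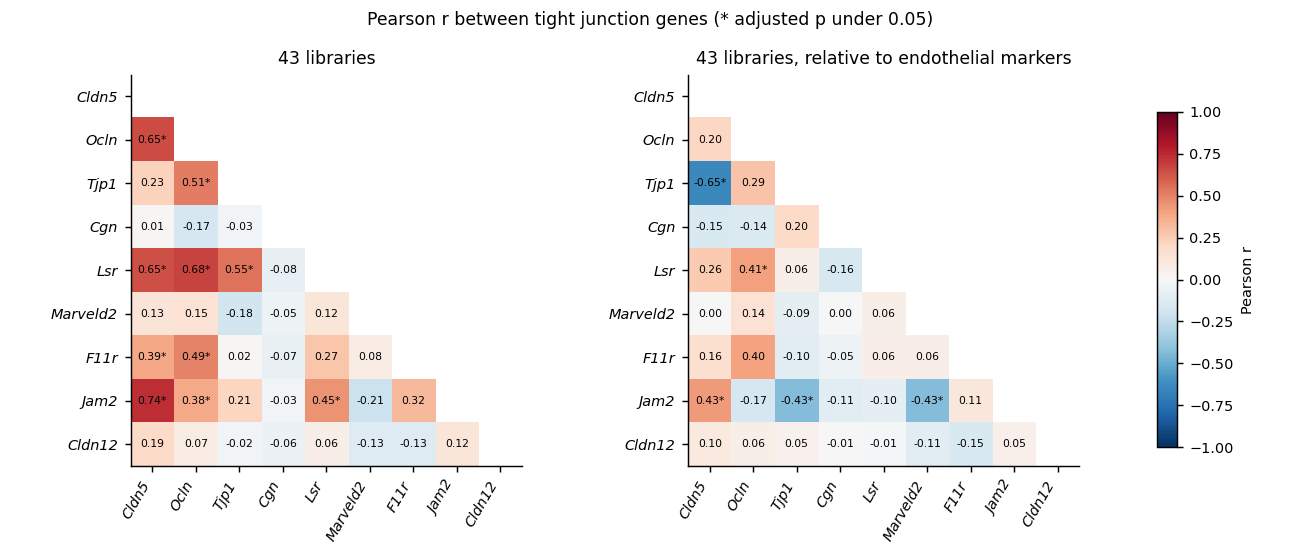
Pearson r of log2(CPM + 1) between the 9 genes over 43 libraries (left) and after subtraction of the mean of 20 endothelial markers (right); asterisks mark an adjusted p under 0.05 over 36 pairs. The highest values on the left are those of Cldn5 with Jam2 (0.739) and Ocln with Lsr (0.679), and Cldn5 with Tjp1 goes from 0.232 to -0.646. The shared subtraction can itself move the values on the right, and their asterisks do not account for it.

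Over the same 43 libraries and 10649 genes with a mean of at least 5 CPM, the genes most like each member were sought by Spearman rho, as a description. Cldn5 was most like Pltp (rho = 0.878), a phospholipid transfer protein that is also 1 of the 20 endothelial markers, and Thbd, the thrombomodulin gene (0.826). Jam2 was most like Slco2b1 (0.780), an organic anion transporter, and Pltp (0.715). Ocln was most like Fcgrt (0.777), the neonatal Fc receptor, and Lsr (0.765), and Lsr in turn most like Ocln and Isyna1 (0.744). The nearest genes to Tjp1 were Nucb1 (0.756) and Mtus1 (0.751), and to F11r Ech1 (0.784) and Magoh (0.769). For Marveld2 the highest rho was 0.629, with Snx17, and for Cgn and Cldn12 it was 0.557, with Kctd2, and 0.520, with Rnf13. The libraries share depth, strain and title within these values.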

How the data were processed

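RNA of sorted EC was measured in 43 libraries. The authors depleted rRNA, prepared libraries with the SMARTer Stranded Pico kit and sequenced single ends of 125 bp, used HISAT2 2.1.0 and SAMtools 1.9 for alignment to mm10 and counted them per gene with featureCounts (Subread 1.4.4), per the labels and the methods; the deposited values are raw counts per gene with no normalization. Groups were taken from the labels. Gene positions and exon lengths came from GENCODE release M21. Library sizes were normalized by TMM with edgeR 4.0.16 under R 4.3.3. A gene stayed in when any library, 1 or more, reached 0.5 CPM. Comparisons used the quasi-likelihood test with bias-adjusted deviances, a trended dispersion and no covariates, two-sided, with Benjamini-Hochberg adjustment over all genes at 0.05. DESeq2 1.42.0 was an alternative. In fits with covariates, genes with runaway fitted counts were left out. The fit was tested on simulated data. Permutation tests and correlations used log2(CPM + 1) in Python 3.11.15 with scipy 1.17.1. The members, lists, dispersion setting and tests were chosen with earlier results of these data known. Named were all 9 members and, of the 4 further lists, the 3 genes with the highest mean CPM per kb and up to 3 called genes with the smallest p per comparison. Total counts per library, 1626534 to 49372356, set the precision of low genes.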

Additional observations from a re-analysis of the deposited data

Results flagged for a closer look

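In 63 groups of 1 gene and 1 strain, a library that lay apart from the rest was sought. Its gap to its nearest neighbour, as a share of the group's range on log2(CPM + 1), had to exceed Dixon's 95% critical value. In normal samples chance flags about 1 in 20 groups, and 6 were found. That rate need not hold here, since the groups mix sexes and titles and Cgn had no count in most libraries. Cldn5 in NOD/ShiLtJ was lowest in the male cortex library titled low, at 874.1 CPM against 1550.0 CPM in the next. Ocln in WSB/EiJ was highest in the female hippocampus library, at 603.3 CPM against 322.5 CPM in the next. Tjp1 in A/J was highest in the male hippocampus library titled high, at 1298 CPM against 1120.0 CPM. Jam2 in DBA/2J was highest in the female hippocampus library, at 249.1 CPM against 188.5 CPM. Cgn in 129S1/SvImJ was at 2.85 CPM in a female cortex library titled high, 131 counts, against at most 0.0382 CPM in the other 8. Cgn in NOD/ShiLtJ was at 1.69 CPM in the male hippocampus library titled low, 8 counts.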

How the results depend on the processing

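Cldn5 was called in 19 of 21 alternatives of the strain comparison. In the title comparison it kept its direction in all 17 and was called in 15. Among strains, the 1 member called became 4 in DESeq2 (Cldn5, Ocln, Tjp1, Marveld2), 3 with sex, region and title tag as covariates (Cldn5, Ocln, Marveld2), 2 with edgeR's default dispersion (Cldn5, Marveld2) and 0 in male libraries only. With the endothelial covariate 1 was called, Marveld2 in place of Cldn5. Leaving out each DBA/2J or A/J library in turn left 1 called throughout. For the titles, the 1 member called became 4 in DESeq2 (Cldn5, Ocln, F11r, Jam2), 3 with edgeR's default dispersion, with strain and region as covariates, or in all 43 libraries, 2 with a filter of 1 CPM in 5 libraries or without NOD/ShiLtJ or WSB/EiJ, and 0 with the endothelial or the astrocyte and neuronal marker mean as a covariate. Alternatives added once the data had been seen, and so chosen after seeing the data, were the default dispersion, the astrocyte and neuronal covariate, the strains left out for the titles, the strain fits in libraries titled high and in males with covariates, the sex fit in libraries titled high with covariates, the 13 strain and region combinations, and correlations within male titles. No member was called under any alternative for origin, sex, region or the interactions. The 10 correlated pairs became 2 in female libraries, 5 relative to endothelial markers and 0 in male libraries titled low. Over all genes, the strain comparison called 781 genes, against 1335 in DESeq2, 3617 with default dispersion and 474 in males. Origin called 218, against 395, 725 and 123, and 7 with counts summed per strain. Sex called 830, against 1901 with default dispersion, 448 in libraries titled high (354 with strain and region as covariates), 59 with the rRNA-like covariate, 532 without 129S1/SvImJ and 515 without DBA/2J. Region called 22, against 61 in DESeq2, 1326 with default dispersion, 37 with the endothelial covariate, 49 with strain, sex and title as covariates and 11 without NOD/ShiLtJ. The titles called 293, against 635 in DESeq2, 981 with default dispersion, 563 with strain and region, 1 and 0 with the marker covariates, and between 124 (without CAST/EiJ) and 407 (without WSB/EiJ) with a strain left out. The interaction of sex and region called 1, against 25 in DESeq2 and 0 under the other alternatives. DESeq2 size factors in edgeR moved the median log2 difference of all genes between the sexes from -0.116 to -0.237. Low counts limit Cgn and Cldn12.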
